A study of Homo sapiens with 9 samples.

Results

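The genes described here build and run the lysosome and the autophagy pathway in SW1783 cells, a human astrocytoma line. They are 49 named genes, matched by Ensembl identifier to 49 rows of a table of 60675 genes, and the rule that picks them is a list of names by function. This list, and the wider list below, were chosen with earlier results of these data known. Their shares beside those of all genes are therefore a description. By role they are 19 proteins of the lysosome lumen (hydrolases and their helper proteins), 6 membrane proteins, 6 proton pump genes, 4 regulators, 4 autophagy receptors and 10 genes of the autophagy machinery. The study profiled mRNA of SW1783 cells after 24 h with herbal extracts, and 9 libraries were used. Ethanol extract of Poria Cocos, a fungus, and ethanol extract of Atractylodis Rhizoma, a plant rhizome, were each given at 20, 100 and 500 µg/mL, with 1 library for each dose. The 3 remaining libraries came from cells given DMSO vehicle alone. The vehicle is 0.1% DMSO in the sample labels and 2% in the series' design text, a difference that the labels do not settle. All 6 treated libraries carry replicate number 2, and nothing says that the vehicle libraries came from separate cultures, so the spread behind each p-value is that among these libraries and may be technical.

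The lysosome is an acidic compartment in which hydrolases digest proteins, lipids and sugars, and a proton pump in its membrane, the V-ATPase, keeps it acidic. In autophagy, cytoplasmic cargo is bound by receptors such as SQSTM1, enclosed in a double membrane decorated with proteins of the LC3 and GABARAP families, and delivered to the lysosome. The transcription factors TFEB and TFE3 drive many lysosomal genes through an E-box called the CLEAR element, and the GTPase RRAGD and its activator FLCN control where these factors sit in the cell.

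The deposited expected counts summed to between 40269708 and 48905602 per library, and mitochondrial transcripts took 5.38% to 6.97% of them. The 49 genes together held 0.700% to 0.820% of the counts, and all 49 passed the filter on low counts, as did 18356 genes in all. Astrocyte markers gave a mixed picture in this line. GFAP, the classical astrocyte filament, stood at 0 to 0.159 CPM (counts scaled to a common library size, by edgeR's cpm) and S100B at 0.0237 to 0.178 CPM, while SOX9 stood at 58.6 to 84.9 CPM and SLC1A3, a glutamate transporter, at 21.1 to 27.1 CPM. Mesenchymal transcripts were abundant, with VIM at 4674 to 6115 CPM and COL1A1 at 3108 to 4280 CPM. The summed level of 6 myeloid markers was 11.0 to 15.4 CPM in treated libraries and 12.02 to 12.6 CPM in vehicle libraries, and that of 5 melanocyte markers was 0.499 to 1.04 CPM in treated and 0.687 to 0.815 CPM in vehicle libraries. Of the 6 myeloid markers, 4 passed the filter on low counts, and the sum came almost wholly from them. AIF1, at 0 in 7 of the 9 libraries, and TYROBP, which did not exceed 0.0897 CPM, did not pass. In bulk RNA, fewer cells of a kind and less RNA per cell cannot be told apart.

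Counted up from vehicle, more of the 49 genes fell than rose with Poria, and more rose than fell with Atractylodis. In a fit over all 9 libraries, each extract had its own slope, the log2 change per 5-fold dose step counted up from vehicle. With Poria, 13 of the 49 genes fell and 4 rose (edgeR quasi-likelihood test, adjusted p under 0.05), against 11.6% of all 18356 tested genes that fell, 9.16% that rose and 20.8% called in all. With Atractylodis, 13 rose and 4 fell, against 8.49% of all genes that rose, 10.5% that fell and 19.0% called in all. The Atractylodis count of 17 hung on single libraries. It was 5 without Atractylodis at 500 µg/mL, of which 4 were among the 17 and the other was TFEB. The count was 8 without vehicle library 1, 10 without vehicle library 3 and 11 without Atractylodis at 100 µg/mL. The share of all genes called fell in these fits too, to 5.61%, 11.5%, 11.7% and 11.5% in this order, so the loss is not particular to the 49 genes. ATP6V1A, GABARAPL2, CD68 and ATP6V0D1 kept their Atractylodis call without the 500 µg/mL library. Of these, only ATP6V1A kept it whichever library was left out (adjusted p up to 0.0455). GABARAPL2 lost it without vehicle library 1 or 3 or Atractylodis at 100 µg/mL (adjusted p up to 0.0587). CD68 and ATP6V0D1 also lost it in other fits, as given below. As shares of the 49 genes these are 26.5% falling and 8.16% rising with Poria, and 26.5% rising and 8.16% falling with Atractylodis. Both slopes share the vehicle libraries. GLA rose with both extracts, SMPD1, CD68 and ATP6V0D1 fell with both, and 0 genes were called in opposite directions.

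**Figure D1:**
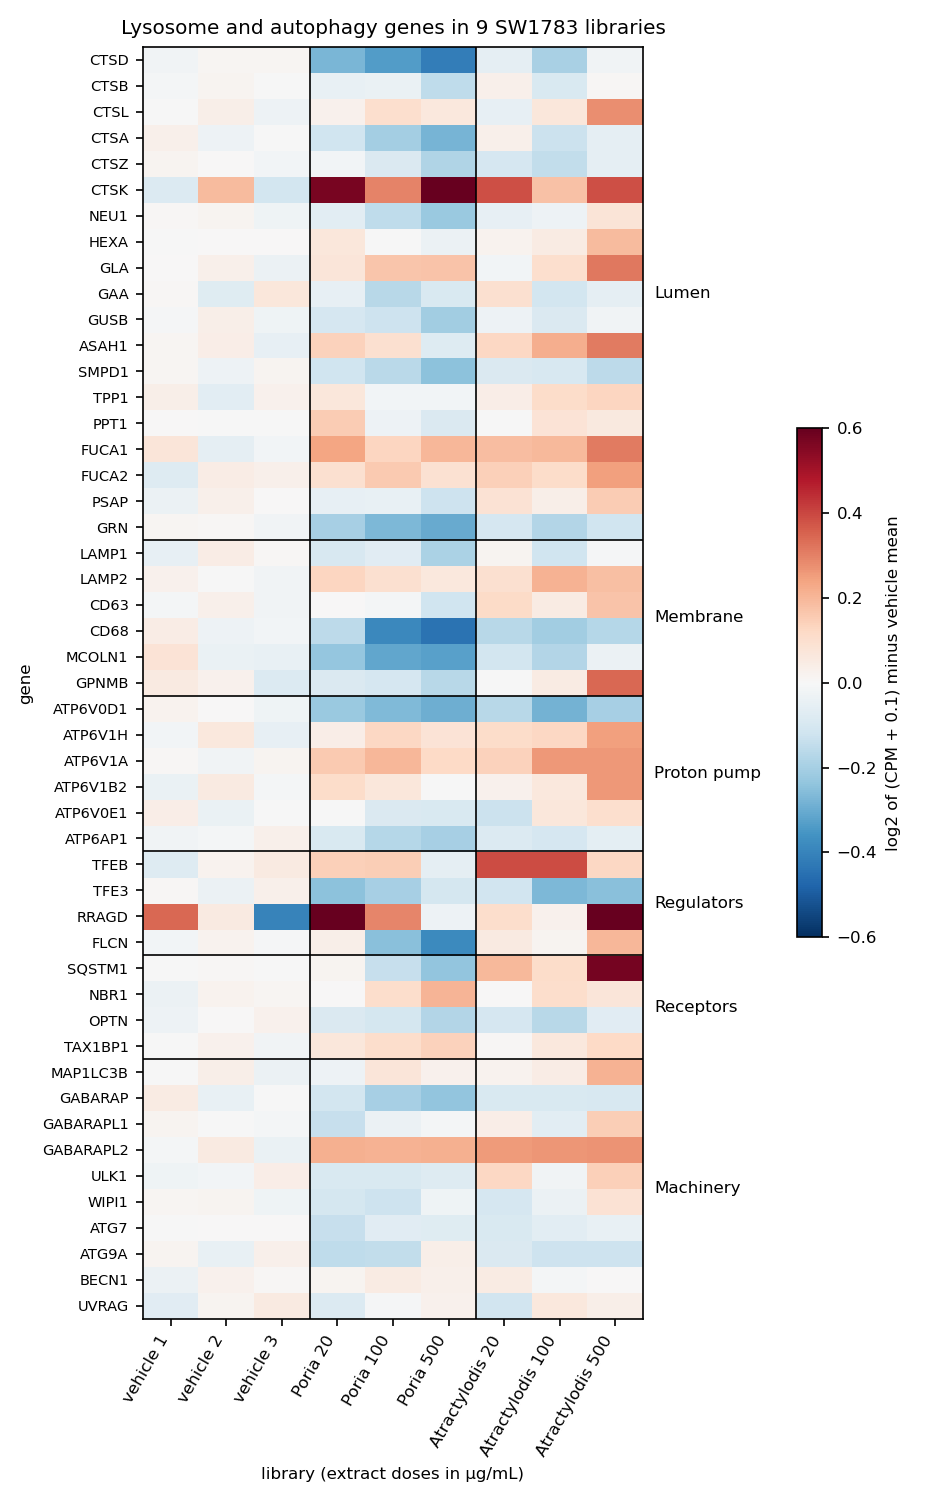
Each row is 1 of the 49 genes and each column 1 library, coloured by log2 of (CPM + 0.1) minus the vehicle mean, with colours capped at 0.6 either way (CTSK and RRAGD pass the cap). Blue cells gather among lumen and membrane genes in the Poria columns, red ones in the column of Atractylodis at 500 µg/mL, where SQSTM1 is the darkest of the autophagy genes.

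The difference between the extracts was tested directly as the Poria slope minus the Atractylodis slope. It was below 0 for 7 of the 49 genes past the threshold and above 0 for 0, whereas 0.676% of all genes passed on the lower side, 0.485% on the upper side and 1.16% in all. The 7 genes were SQSTM1, FLCN, GPNMB, CTSD, NEU1, PSAP and ASAH1. An unadjusted p under 0.05 was reached by 20 of the 49 genes. The share of all genes at an unadjusted p was not counted, here or below, so such counts have no background to be read against. DESeq2 called 10 of the 49, of which 0 lay above 0, beside 1.59% of all genes. Whatever the call, 43 of the 49 differences were negative, against 9234 of 18356 for all genes. Without Poria at 500 µg/mL the number called was 0 (15 at an unadjusted p under 0.05), without Atractylodis at 500 µg/mL it was also 0 (10 at an unadjusted p), and in both cases 0 of all genes were called by edgeR, the tool run in these settings. Leaving out any 1 vehicle library gave 4 calls, beside 0.768% to 0.839% of all genes.

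Libraries at matched doses were also set against each other. At 20 µg/mL, 30 of the 49 genes were lower with Poria than with Atractylodis, at 100 µg/mL 32 were, and at 500 µg/mL 43 were, while the share over all genes stayed at 49.5%, 50.4% and 49.9%. The median log2 ratio of Poria to Atractylodis over the 49 genes was -0.03 at 20 µg/mL, -0.06 at 100 µg/mL and -0.16 at 500 µg/mL. For the 31 lysosomal genes (lumen, membrane and proton pump) 17, 22 and 30 were lower with Poria at these doses, with medians of -0.011, -0.064 and -0.18. For the 14 autophagy genes (receptors and machinery) 10, 8 and 10 were lower, with medians of -0.039, -0.013 and -0.083, which do not step up from dose to dose. With 1 library a dose, these ratios have no test.

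Lysosomal genes (lumen, membrane and proton pump, 31 genes) and autophagy genes (receptors and machinery, 14 genes) were then set side by side. Of the lysosomal genes, 11 fell and 2 rose with Poria, and 10 rose and 3 fell with Atractylodis. Of the autophagy genes, 1 fell and 2 rose with Poria, and 3 rose and 0 fell with Atractylodis. In each trend 41.9% of the lysosomal genes and 21.4% of the autophagy genes were called, beside 20.8% of all genes with Poria and 19.0% with Atractylodis. Taken over both directions, the autophagy share thus lies near the background. By direction, 14.3% of autophagy genes rose and 7.14% fell with Poria, beside 9.16% and 11.6% of all genes. With Atractylodis 21.4% rose and 0% fell, beside 8.49% and 10.5%. The difference between extracts passed for 16.1% of lysosomal and 7.14% of autophagy genes, beside 1.16% of all genes. Whether lysosomal and autophagy genes differ was not tested. The median Poria slope was -0.038 for lysosomal genes and -0.0055 for autophagy genes, beside 0.0011 over all genes. The median Atractylodis slope was 0.032 for lysosomal genes and 0.030 for autophagy genes, beside 0.0033 over all genes. At 500 µg/mL, 30 of the 31 lysosomal genes and 10 of the 14 autophagy genes were lower with Poria than with Atractylodis. CTSK, a collagen-digesting protease, was the exception among lysosomal genes, at 2.39 CPM with Poria and 1.91 CPM with Atractylodis.

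**Figure D2:**
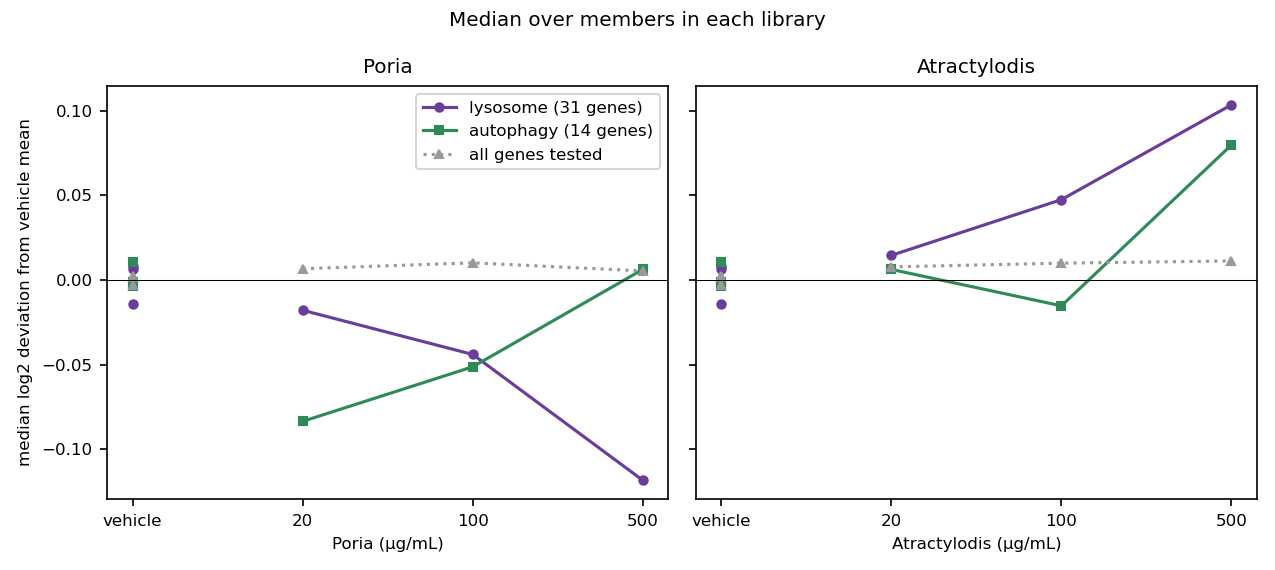
Median log2 deviation from the vehicle mean over 31 lysosomal genes (circles), 14 autophagy genes (squares) and all tested genes (triangles), by library, for vehicle and 3 doses of Poria (left) and Atractylodis (right). The lysosomal median lies at -0.12 with Poria and 0.10 with Atractylodis at 500 µg/mL, the autophagy median at 0.0062 and 0.080, and the median over all genes stays within 0.0112 of 0.

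Summed over the 31 lysosomal genes, the level was 5604 to 5663 CPM in vehicle, 5472, 5340 and 5093 CPM with Poria at 20, 100 and 500 µg/mL, and 5681, 5555 and 5904 CPM with Atractylodis at these doses. The sum thus stepped down with each dose of Poria and was highest with Atractylodis at 500 µg/mL. For the 14 autophagy genes the sums were 1604 to 1612 CPM in vehicle, 1588, 1548 and 1530 CPM with Poria, and 1675, 1650 and 1909 CPM with Atractylodis at the same doses. SQSTM1 alone held 824 CPM of that last value.

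Of the 49 genes, 37 have a promoter window in RefSeq (GRCh38.p14, 250 bases before to 50 after an annotated start), and these were searched for the E-box core CACGTG, which reads the same on both strands. It occurred in the windows of 8 of the 37 genes (21.6%), in 8.77% of all 27305 genes with a window, and in 12.1% of the 12286 tested genes with one. All 13 genes that fell with Poria have a window, and 6 of them hold the core (46.2%), compared with 16.5% of the 1713 tested genes with a window that fell with Poria and with 2 of the 24 other genes of the set (8.33%), CD63 and GAA. The longer form GTCACGTG, read on either strand and containing the core, occurred in 5 of the 13, in 1 of the 24 and in 5.01% of tested genes. A match is a description of these letters, not a binding site. The 6 stretches below show where the core lies, in capitals, 5′ to 3′ on the gene's strand and with 20 bases on either side where the window allows; bases are counted from the RefSeq start, with -1 just before it.
ATP6V0D1, chr16:67481191-67481236, minus strand, core from -59: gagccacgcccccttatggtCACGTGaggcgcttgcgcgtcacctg
CTSA, chr20:45891273-45891334, plus strand, cores from -42 and -25: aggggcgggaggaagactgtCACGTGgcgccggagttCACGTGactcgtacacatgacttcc
CTSD, chr11:1763949-1763994, minus strand, core from -47: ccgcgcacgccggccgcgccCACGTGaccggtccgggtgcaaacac
LAMP1, chr13:113297027-113297236, plus strand, 5 of its 6 cores, the first from -192 and the last from -28: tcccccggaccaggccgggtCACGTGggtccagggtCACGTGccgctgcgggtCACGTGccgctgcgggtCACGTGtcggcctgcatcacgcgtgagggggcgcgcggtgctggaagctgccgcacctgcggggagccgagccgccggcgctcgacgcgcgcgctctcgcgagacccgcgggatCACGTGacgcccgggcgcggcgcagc
MCOLN1, chr19:7522563-7522623, plus strand, cores from -41 and -14: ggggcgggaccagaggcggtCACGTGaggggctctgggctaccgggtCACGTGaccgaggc
NEU1, chr6:31862922-31862967, minus strand, core from -126: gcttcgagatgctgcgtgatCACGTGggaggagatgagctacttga

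In the lysosome lumen, 6 of 19 genes fell and 2 rose with Poria, and 5 rose and 1 fell with Atractylodis. Over all genes 11.6% fell and 9.16% rose with Poria, and 8.49% rose and 10.5% fell with Atractylodis. CTSD (cathepsin D, the main aspartic protease of the lysosome; chromosome 11, 1752752 to 1764573, minus strand, GRCh38) stood at 306, 314 and 314 CPM in vehicle. It was at 257, 246 and 233 CPM with Poria and at 300, 272 and 307 CPM with Atractylodis at 20, 100 and 500 µg/mL. All 3 Poria libraries lay below every vehicle library, and CTSD at 500 µg/mL Poria was 0.750 of the vehicle mean. Its slope was -0.14 ± 0.022 (SE) with Poria (adjusted p = 0.000422) and -0.020 ± 0.021 with Atractylodis (adjusted p = 0.579). GRN (progranulin, a secreted and lysosomal glycoprotein) was at 282, 282 and 276 CPM in vehicle, at 244, 233 and 227 CPM with Poria, and at 261, 248 and 258 CPM with Atractylodis. The 6 treated libraries lay below vehicle, and the Poria slope was -0.10 ± 0.018 (adjusted p = 0.000788).

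CTSA, the protective protein that stabilises neuraminidase and beta-galactosidase, and NEU1, that neuraminidase, both fell with Poria. CTSA was at 335, 321 and 327 CPM in vehicle, at 302, 285 and 270 CPM with Poria and at 334, 300 and 315 CPM with Atractylodis. NEU1 (chromosome 6, 31857659 to 31862906, minus strand) was at 139, 140 and 135 CPM in vehicle, at 132, 124 and 118 CPM with Poria and at 133, 135 and 146 CPM with Atractylodis. Each gene stepped down from dose to dose of Poria, and all 3 Poria libraries lay below vehicle in both. The Poria slopes were -0.098 ± 0.017 for CTSA (adjusted p = 0.00103) and -0.069 ± 0.017 for NEU1 (adjusted p = 0.00786). SMPD1, the acid sphingomyelinase, fell with either extract, to 83.8 CPM at 500 µg/mL Poria and 89.1 CPM at 500 µg/mL Atractylodis, against 97.2 to 100.5 CPM in vehicle; its Atractylodis call was lost without any 1 vehicle library or without Atractylodis at 100 or 500 µg/mL (adjusted p up to 0.244). GUSB, the beta-glucuronidase, was at 61.9 to 64.4 CPM in vehicle and at 58.6, 57.8 and 54.4 CPM with Poria (slope -0.066 ± 0.017, adjusted p = 0.0126). Without Poria at 500 µg/mL neither NEU1 (adjusted p = 0.108) nor GUSB (adjusted p = 0.136) passed.

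The lumen genes that rose did so mostly with Atractylodis. GLA (alpha-galactosidase A) was at 59.6, 60.7 and 58.0 CPM in vehicle, at 62.4, 66.6 and 66.9 CPM with Poria and at 58.8, 63.8 and 74.1 CPM with Atractylodis. Its slopes were 0.073 ± 0.020 with Poria (adjusted p = 0.0142) and 0.090 ± 0.019 with Atractylodis (adjusted p = 0.0045). The Poria call was lost without Poria at 100 µg/mL (adjusted p = 0.0519) and the Atractylodis call without Atractylodis at 500 µg/mL (adjusted p = 0.434). ASAH1, the acid ceramidase (chromosome 8, 18055992 to 18084998, minus strand), was at 71.5, 72.9 and 68.7 CPM in vehicle, at 78.1, 75.9 and 67.3 CPM with Poria and at 77.5, 82.7 and 88.2 CPM with Atractylodis. Its level went down over the Poria doses and up over the Atractylodis doses, and only the Atractylodis slope passed (0.092 ± 0.021, adjusted p = 0.00661; 0.123 without Atractylodis at 500 µg/mL). CTSL (cathepsin L, a cysteine protease) was at 164 to 172 CPM in vehicle and at 162, 176 and 203 CPM with Atractylodis (0.076 ± 0.019, adjusted p = 0.012; 0.688 without Atractylodis at 500 µg/mL). The fucosidases FUCA1 and FUCA2 rose with Atractylodis as well, to 1.24 and 1.18 times their vehicle means at 500 µg/mL. Both calls were lost without that library (adjusted p = 0.203 for FUCA1 and 0.278 for FUCA2). The FUCA1 call was also lost without vehicle library 2 or 3, and the FUCA2 call without vehicle library 1. CTSK was low throughout and rose with Poria to 2.39 CPM at 500 µg/mL, against 1.33 to 1.66 CPM in vehicle (0.20 ± 0.067, adjusted p = 0.0401), a call lost when any 1 vehicle library, Poria at 500 µg/mL or Atractylodis at 100 µg/mL was left out (adjusted p up to 0.306).

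PSAP, the precursor of the saposins that help hydrolases reach lipids (chromosome 10, 71816298 to 71851375, minus strand), was the most abundant lumen gene per transcript length, at 188 CPM per kb in vehicle. It was at 527, 551 and 541 CPM in vehicle, at 520, 523 and 494 CPM with Poria and at 573, 553 and 599 CPM with Atractylodis. Neither slope passed alone (adjusted p = 0.121 with Poria and 0.0845 with Atractylodis), but their difference did. The remaining lumen genes CTSB, CTSZ, HEXA, GAA, TPP1 and PPT1 were not called in any comparison, with Poria slopes of -0.051 to -0.0051 and Atractylodis slopes of -0.036 to 0.049. PPT1 shares 23.4% of its exon bases with CAP1 on the opposite strand, which stood at 409 CPM in vehicle, and whether the counting used strand is not given in the sources used here.

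Among the 6 membrane genes, 3 fell and 0 rose with Poria, and 2 rose and 1 fell with Atractylodis (edgeR). Over all genes 11.6% fell and 9.16% rose with Poria, and 8.49% rose and 10.5% fell with Atractylodis. CD68, a heavily glycosylated protein of the lysosomal membrane, was at 172, 163 and 165 CPM in vehicle, at 149, 127 and 122 CPM with Poria and at 148, 144 and 148 CPM with Atractylodis. All 6 treated libraries lay below all vehicle libraries, with slopes of -0.15 ± 0.019 for Poria (adjusted p = 9.04e-05) and -0.068 ± 0.019 for Atractylodis (adjusted p = 0.0174). The Atractylodis call was lost without vehicle library 1 or Atractylodis at 100 µg/mL (adjusted p up to 0.0717). CD68 shares 81.7% of its exon bases with a same-strand gene, ENSG00000264772, at 28.7 CPM in vehicle, so its counts are uncertain. MCOLN1, the calcium channel TRPML1, was at 24.3, 22.3 and 22.2 CPM in vehicle and at 19.5, 18.4 and 18.3 CPM with Poria (-0.11 ± 0.027, adjusted p = 0.00665). With Atractylodis it was at 21.2, 20.3 and 22.3 CPM, not past the threshold.

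LAMP1 and LAMP2, the main glycoproteins lining the lysosomal membrane, had nearly the same level per length in vehicle (97.4 and 101 CPM per kb) and moved apart. LAMP1 was at 494, 526 and 512 CPM in vehicle, at 477, 487 and 448 CPM with Poria and at 516, 470 and 507 CPM with Atractylodis. LAMP2 was at 412, 405 and 399 CPM in vehicle, at 443, 433 and 424 CPM with Poria and at 433, 469 and 460 CPM with Atractylodis. All 3 Poria libraries lay below vehicle for LAMP1, and all 6 treated libraries above vehicle for LAMP2. LAMP1 fell with Poria (-0.055 ± 0.019, adjusted p = 0.0452), a call lost without any 1 vehicle library and without Poria at 100 or 500 µg/mL (adjusted p up to 0.391). LAMP2 rose with Atractylodis (0.064 ± 0.018, adjusted p = 0.0197), a call lost without any 1 vehicle library and without Atractylodis at 100 or 500 µg/mL (adjusted p up to 0.0816). Whether the 2 genes differ from each other was not tested. CD63, a tetraspanin, had the highest level per length of the whole set at 525 CPM per kb and was not called. It stood at 647, 641 and 596 CPM with Poria and at 701, 669 and 729 CPM with Atractylodis.

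GPNMB, a membrane glycoprotein known from melanocytes and macrophages (chromosome 7, 23235967 to 23275108), was at 34.2, 33.6 and 31.2 CPM in vehicle. It was at 31.1, 30.8 and 29.3 CPM with Poria and at 32.9, 34.1 and 41.9 CPM with Atractylodis. Only the library of Atractylodis at 500 µg/mL stood clearly above vehicle, and without it the Atractylodis slope of 0.094 ± 0.024 (adjusted p = 0.012) was 0.022 (adjusted p = 0.743). The myeloid marker sum in that library was 11.0 CPM, the lowest of the 9, and the melanocyte marker sum 0.621 CPM. The part of either in the result was not tested.

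In the proton pump, 3 of 6 genes rose and 1 fell with Atractylodis, and 0 rose and 2 fell with Poria. Over all genes 8.49% rose and 10.5% fell with Atractylodis, and 9.16% rose and 11.6% fell with Poria. Those that rose are subunits of the cytosolic V1 sector, and 1 subunit of the membrane V0 sector fell with both extracts. Outside the 49 genes, the V1 subunits of the wider list below were not called as rising. ATP6V1F and ATP6V1G1 fell with Poria (edgeR adjusted p = 0.00487 and 0.00359) and were not called with Atractylodis (0.217 and 0.39). Both were lower in treated libraries (-0.13 and -0.19, edgeR adjusted p = 0.0318 and 0.0117). ATP6V1C1, ATP6V1D and ATP6V1E1 were not called. Of the V0 subunits, ATP6V0C and ATP6V0E2 fell with both extracts, whereas ATP6V0A1, ATP6V0A2 and ATP6V0B were not called. ATP6V1A, the catalytic V1 subunit, was at 43.4, 42.5 and 43.6 CPM in vehicle, at 48.2, 49.5 and 46.95 CPM with Poria and at 47.6, 51.8 and 51.8 CPM with Atractylodis. Every treated library was above vehicle, and the slope passed with Atractylodis (0.089 ± 0.021, adjusted p = 0.00723). ATP6V1H and ATP6V1B2, both V1 subunits, also rose with Atractylodis, to 1.19 and 1.20 times vehicle at 500 µg/mL, and neither call held without that library (adjusted p = 0.203 for ATP6V1H and 0.76 for ATP6V1B2). The ATP6V1B2 call was also lost without vehicle library 1 or 3. ATP6V0D1, a V0 subunit, was at 97.2, 95.8 and 93.9 CPM in vehicle, at 81.8, 79.5 and 78.0 CPM with Poria and at 85.2, 78.7 and 83.2 CPM with Atractylodis. It fell with Poria (-0.099 ± 0.021, adjusted p = 0.00301) and with Atractylodis (-0.077 ± 0.021, adjusted p = 0.0161), with all treated libraries below vehicle; the Atractylodis call was lost without vehicle library 1 or 2 or Atractylodis at 100 µg/mL (adjusted p up to 0.0751). ATP6AP1, an accessory subunit, was at 315, 317 and 325 CPM in vehicle and at 299, 283 and 278 CPM with Poria (-0.066 ± 0.016, adjusted p = 0.00878). ATP6V0E1 was not called in any comparison, and 0 of the 6 pump genes passed the test of the difference between extracts with edgeR or DESeq2 (3 at an unadjusted p under 0.05 in edgeR).

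The regulators did not move as a block. TFEB was at 10.5, 11.3 and 11.5 CPM in vehicle, 12.2, 12.3 and 10.7 CPM with Poria and 14.6, 14.6 and 12.1 CPM with Atractylodis. The Atractylodis libraries all lay above vehicle, highest at 20 and 100 µg/mL, but no comparison of TFEB passed over all 9 libraries (treated against vehicle 0.20 ± 0.089, adjusted p = 0.117; Atractylodis slope 0.071 ± 0.046, adjusted p = 0.329). Without Atractylodis at 500 µg/mL the Atractylodis slope of TFEB was 0.20 and passed (adjusted p = 0.0377), and without Poria at 500 µg/mL TFEB passed for treated against vehicle (0.25, adjusted p = 0.0171). TFE3 was at 167, 162 and 170 CPM in vehicle, at 141, 145 and 155 CPM with Poria and at 154, 138 and 140 CPM with Atractylodis. All 6 treated libraries of TFE3 were below vehicle, and its Atractylodis slope passed (-0.083 ± 0.024, adjusted p = 0.025), though not without any 1 vehicle library or without Atractylodis at 100 or 500 µg/mL (adjusted p up to 0.0986). RRAGD was near the detection limit, at 0.270 to 0.713 CPM, with no call.

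FLCN (folliculin, chromosome 17, 17212212 to 17237188) separated the extracts. It was at 37.8, 38.8 and 38.1 CPM in vehicle, at 39.1, 32.1 and 29.3 CPM with Poria and at 39.7, 38.6 and 43.9 CPM with Atractylodis. At 20 µg/mL both extracts gave values just above vehicle, and at 500 µg/mL the Poria level was 0.669 of the Atractylodis level. The Poria slope was -0.12 ± 0.024 (adjusted p = 0.00184), and the Atractylodis slope of 0.041 ± 0.023 did not pass (adjusted p = 0.233). Without Poria at 500 µg/mL the Poria slope of FLCN was no longer past the threshold (adjusted p = 0.0835).

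SQSTM1 (p62, the receptor that binds ubiquitinated cargo; chromosome 5, 179806398 to 179838078) moved most of the 4 autophagy receptors. It was at 552, 557 and 552 CPM in vehicle, at 561, 503 and 470 CPM with Poria and at 634, 599 and 824 CPM with Atractylodis. The vehicle libraries lay close together (554 ± 2.44 CPM, SD, n = 3), every Atractylodis library stood above them, and 2 of the 3 Poria libraries stood below. The level at 500 µg/mL was 0.848 of the vehicle mean with Poria and 1.49 times the vehicle mean with Atractylodis. The Atractylodis slope was 0.15 ± 0.026 (adjusted p = 0.00179), and the Poria slope of -0.072 ± 0.027 did not pass (adjusted p = 0.076). That Poria slope passed when Atractylodis at 500 or at 100 µg/mL was left out (adjusted p down to 0.00782). Without the library of Atractylodis at 500 µg/mL the Atractylodis slope of SQSTM1 was 0.066 (adjusted p = 0.226). SQSTM1 shares 20.7% of its exon bases with MRNIP on the opposite strand, at 31.4 CPM in vehicle.

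The other receptors moved less. NBR1, which binds ubiquitin and LC3 like SQSTM1, was at 118, 122 and 121 CPM in vehicle, at 121, 129 and 138 CPM with Poria and at 120, 129 and 126 CPM with Atractylodis. It rose with Poria (0.064 ± 0.016, adjusted p = 0.00989), a call lost without Poria at 500 µg/mL (adjusted p = 0.225). TAX1BP1, another ubiquitin-binding receptor, was at 204 to 211 CPM in vehicle and rose with Poria to 217, 223 and 228 CPM (0.050 ± 0.015, adjusted p = 0.0269), which was lost without vehicle library 1 or 3 or without Poria at 100 or 500 µg/mL (adjusted p up to 0.12). OPTN, a receptor for damaged mitochondria and bacteria, was at 62.7 to 67.6 CPM in treated libraries and 69.4 to 72.2 CPM in vehicle. Its slopes did not pass, but its treated libraries together were lower than vehicle (-0.12 ± 0.036, adjusted p = 0.0237).

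**Figure D3:**
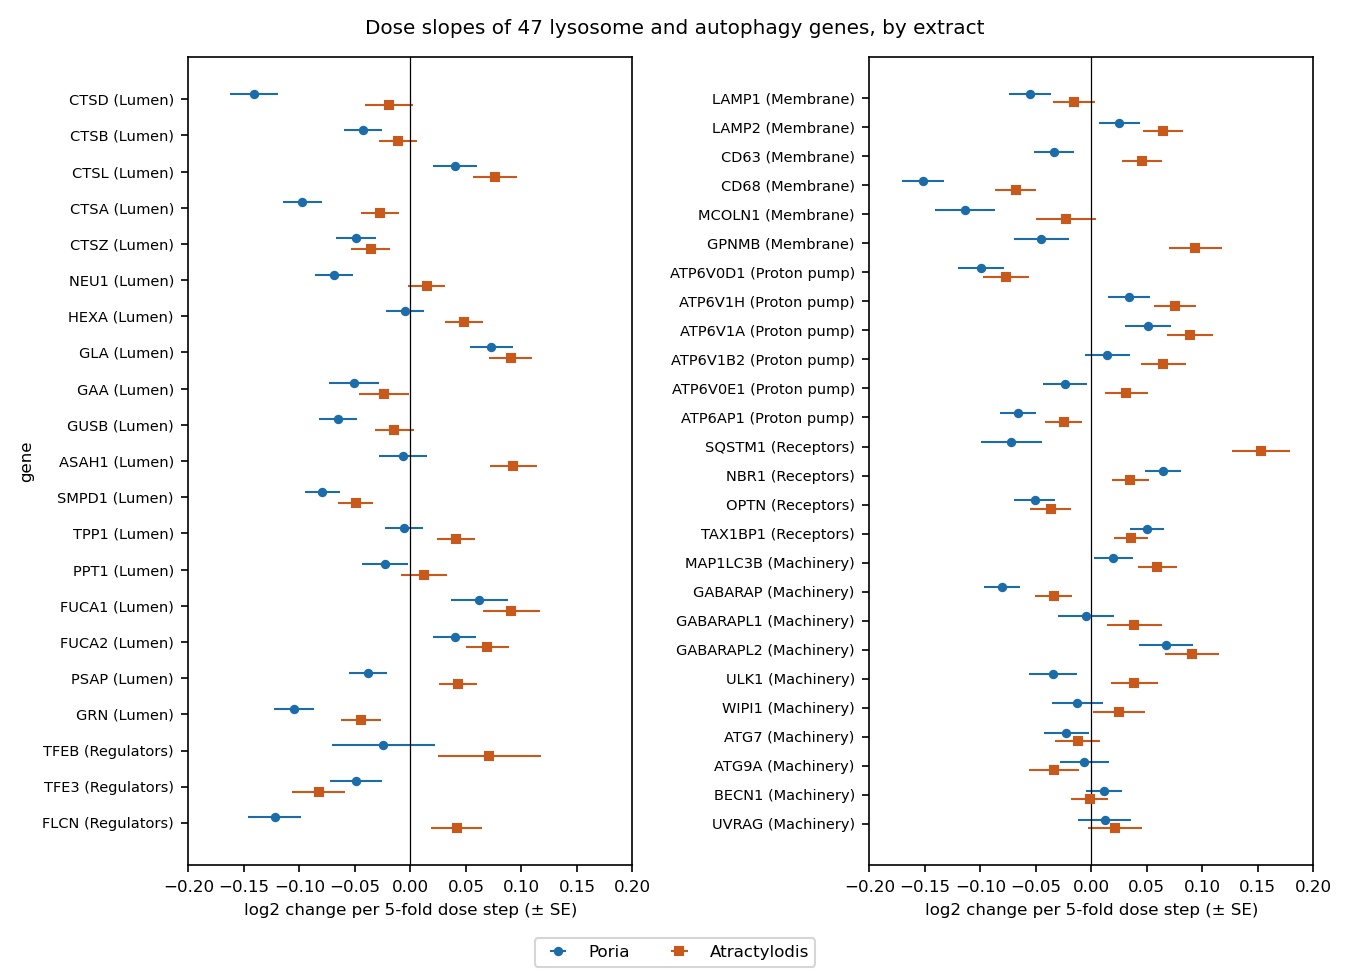
Slopes with standard errors, in log2 change per 5-fold dose step, for Poria (circles) and Atractylodis (squares); CTSK and RRAGD are left out for their wide errors. The Poria point lies left of the Atractylodis point for most genes, with the widest gaps in SQSTM1 and FLCN.

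Within the machinery, members of the LC3 and GABARAP families, which are attached to the growing autophagosome membrane, gave different responses. MAP1LC3B (LC3B) was at 105, 108 and 103 CPM in vehicle, at 103, 111 and 107 CPM with Poria and at 107, 109 and 122 CPM with Atractylodis. It rose with Atractylodis (0.060 ± 0.017, adjusted p = 0.0241), with 1.16 times the vehicle mean at 500 µg/mL, and this call was lost without Atractylodis at 500 µg/mL or vehicle library 1 or 3 (adjusted p up to 0.634). Its near copy MAP1LC3B2 was at 0.308 to 0.540 CPM. GABARAPL2 was at 39.4, 39.3 and 39.4 CPM with Poria and at 40.6, 40.9 and 41.05 CPM with Atractylodis, against 33.8, 35.3 and 33.1 CPM in vehicle. All 6 treated libraries thus stood above vehicle with no step between doses. GABARAP went the other way, at 182, 172 and 167 CPM with Poria and 185, 185 and 184 CPM with Atractylodis, against 204, 191 and 197 CPM in vehicle, and it fell with Poria (-0.081 ± 0.017, adjusted p = 0.00263). GABARAPL1 was at 22.3, 22.1 and 21.9 CPM in vehicle, 20.1, 21.6 and 21.9 CPM with Poria and 22.7, 21.2 and 24.5 CPM with Atractylodis, with no call.

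The other 6 machinery genes act in starting and extending the autophagosome. ULK1, the kinase that starts autophagy, BECN1 and UVRAG of the lipid kinase complex, WIPI1, ATG7 and ATG9A passed in 0 of the 4 comparisons (edgeR and DESeq2; at an unadjusted p under 0.05 in edgeR, ULK1 passed for the slope difference and ATG9A for treated against vehicle). BECN1 ranged from 70.3 to 73.5 CPM over the treated libraries, against 69.2 to 72.3 CPM in vehicle. ULK1 was at 40.7, 40.6 and 41.04 CPM with Poria and at 47.2, 42.7 and 47.8 CPM with Atractylodis, and the difference of its slopes of -0.073 ± 0.023 missed the threshold (adjusted p = 0.159). ATG7 was at 35.4 to 37.8 CPM in treated libraries, all below the 38.9 to 39.0 CPM of vehicle, without passing (-0.080 ± 0.039, adjusted p = 0.148); 18.1% of its exon bases lie opposite VGLL4, at 72.4 CPM.

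The 7 genes whose slopes differed between the extracts span receptor, regulator, membrane and lumen. The Poria slope minus the Atractylodis slope was -0.225 ± 0.029 for SQSTM1 (adjusted p = 0.0038), -0.164 ± 0.026 for FLCN (adjusted p = 0.0058) and -0.139 ± 0.027 for GPNMB (adjusted p = 0.0178). It was -0.122 ± 0.024 for CTSD (adjusted p = 0.0186), -0.0835 ± 0.018 for NEU1 (adjusted p = 0.0313), -0.0812 ± 0.019 for PSAP (adjusted p = 0.0388) and -0.0995 ± 0.023 for ASAH1 (adjusted p = 0.0459). At 500 µg/mL the Poria level over the Atractylodis level was 0.570 for SQSTM1, 0.669 for FLCN, 0.701 for GPNMB, 0.760 for CTSD, 0.763 for ASAH1, 0.810 for NEU1 and 0.825 for PSAP. The calls of NEU1, PSAP and ASAH1 were also lost without any 1 vehicle library. NEU1 and PSAP lost theirs without Poria at 100 µg/mL too, and ASAH1 without Atractylodis at 20 or 100 µg/mL. Relative to the vehicle mean at 500 µg/mL, FLCN was at 0.768 with Poria and 1.15 with Atractylodis, and GPNMB at 0.889 with Poria and 1.27 with Atractylodis. CTSD was at 0.750 with Poria and 0.986 with Atractylodis, and ASAH1 at 0.948 with Poria and 1.24 with Atractylodis. CD63 (-0.079 ± 0.019, adjusted p = 0.0586), CD68 (-0.083 ± 0.021, adjusted p = 0.0599) and CTSA (-0.070 ± 0.019, adjusted p = 0.0885) lay just outside the threshold.

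**Figure D4:**
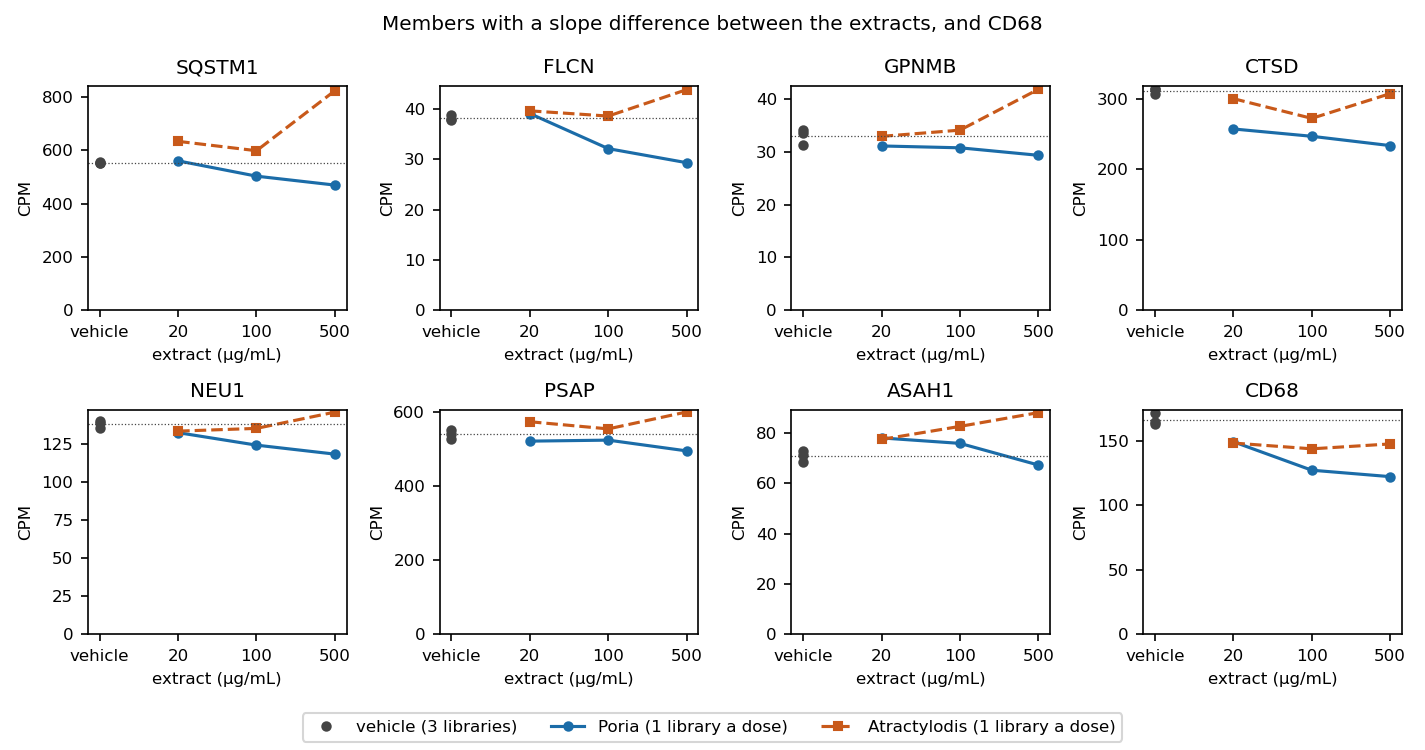
CPM by library for the 7 genes whose slopes differ between extracts, and for CD68, over vehicle (3 grey points, dotted line at their mean), Poria (circles) and Atractylodis (squares, dashed) at 20, 100 and 500 µg/mL, each axis starting at 0. The extracts start close together at 20 µg/mL in FLCN, NEU1 and ASAH1 and are apart at 500 µg/mL in all 8 genes.

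Slopes were also fitted over the 3 doses of each extract within the treated libraries, with each extract free to be offset from vehicle. The vehicle libraries do not bear on these slopes, but their spread still enters the p-values (4 residual degrees of freedom). In that fit 3 genes fell and 0 rose with Poria, among them CD68 and FLCN of the 17 above (13 of 49 at an unadjusted p under 0.05), where 2.45% of all genes were called. With Atractylodis 5 rose and 0 fell, among them GLA, CTSL, GPNMB and ATP6V1B2 (14 at an unadjusted p), where 4.04% of all genes were called. The difference of slopes then passed for FLCN (-0.28, adjusted p = 0.00751), ASAH1 (-0.20, adjusted p = 0.0217) and ATP6V1B2, with 1.16% of all genes called, while SQSTM1 had -0.32 (adjusted p = 0.262). DESeq2 was not run in this setting.

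Treated libraries together were compared with vehicle, the contrast with several libraries on both sides. The 6 treated libraries are different conditions, not replicates, so the spread behind these p-values includes dose and extract. Of the 49 genes, 6 were higher and 9 lower (edgeR), a share of 30.6% against 25.3% of all genes, with 2197 of all genes higher and 2442 lower (13.3%). The higher ones were GABARAPL2 (0.24 ± 0.041, adjusted p = 0.000411), ATP6V1A (0.19 ± 0.043, adjusted p = 0.00311), FUCA1 (0.21 ± 0.050, adjusted p = 0.00491), FUCA2, LAMP2 and CTSK. The lower ones were ATP6V0D1 (-0.24 ± 0.036, adjusted p = 0.000154), TFE3 (-0.20 ± 0.042, adjusted p = 0.00206), GRN (-0.19 ± 0.043, adjusted p = 0.0032), CD68, SMPD1, GABARAP, OPTN, MCOLN1 and ATP6AP1. All 6 treated libraries lay above all vehicle libraries in 5 genes and below them in 10, against 12.4% and 13.7% of all genes. These shares lie near the background, and the median change over the 49 genes was 0.0013, beside 0.014 over all genes. Left out in turn, single libraries removed the calls of CTSK, FUCA2, LAMP2, OPTN, MCOLN1, GABARAP and ATP6AP1 at least once (adjusted p up to 0.168). Without vehicle library 1, the most costly, 9 calls were left, and 16.3% of all genes were called. Marker lists moved in the same contrast: the summed level of 6 mesenchymal markers was 10480 to 11900 CPM in treated and 12750 to 13010 CPM in vehicle libraries, with 4 of the 6 lower, and that of 8 astrocyte markers was 91.7 to 107 CPM in treated and 111 to 113 CPM in vehicle libraries. Of the 4 astrocyte markers tested, SOX9 was lower (-0.30), SLC1A3 higher (0.28), and NES and SLC1A2 were not called, with a median change of 0.24. Their part in the changes of the 49 genes was not tested.

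Base composition moved with these changes. The 6 genes higher in treated libraries had a median transcript GC content of 43.0% and the 9 lower ones 58.1%, where the median over all tested genes was 48.2%. Across the 49 genes, Spearman's rho between GC content and change was -0.65 for treated against vehicle, -0.69 for the Poria slope and -0.57 for the Atractylodis slope, beside -0.30 over all genes in each. These correlations are across genes that share the same libraries and are given as a description. For the difference between the extracts rho was -0.16 over the 49 genes and -0.02 over all genes. With offsets for GC content and length in each library, treated against vehicle gave 6 higher and 5 lower genes, Poria 5 rising and 9 falling (12 of the 17 kept), and Atractylodis 14 rising and 0 falling (10 of the 17 kept). The fall of SMPD1, CD68, ATP6V0D1 and TFE3 with Atractylodis was thus lost, and TFEB was called higher in treated libraries. The difference between extracts kept all 7 genes and added CTSA. With these offsets, 21.5% of all genes were called for treated against vehicle, 15.4% for Poria, 14.5% for Atractylodis and 1.43% for the difference.

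**Figure D5:**
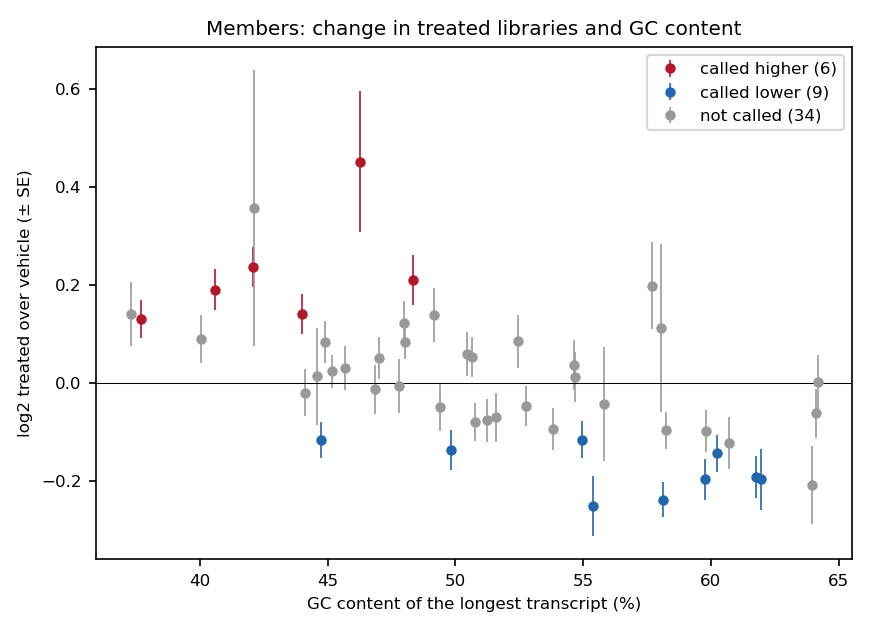
Log2 change of treated over vehicle libraries, with its standard error, against the GC content of each gene's longest transcript, for the genes called higher (red), called lower (blue) and not called (grey). Higher genes lie at 37.7% to 48.4% GC and lower ones at 44.8% to 62.0%.

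A wider list of 110 further lysosome and autophagy genes, all tested, was counted in the same way. With Poria 20 fell and 12 rose (29.1% called, 20.8% over all genes), and with Atractylodis 24 rose and 4 fell (25.5% called, 19.0% over all genes). For treated against vehicle 22 were higher and 11 lower (30.0% called, 25.3% over all genes), whereas the 49 genes had 6 higher and 9 lower. The difference between extracts passed for 5 genes, all lower with Poria, or 4.55% of the list, beside 1.16% over all genes. They were CLCN7, a chloride-proton exchanger of the lysosome, RRAGC and LAMTOR3, which recruit the kinase mTORC1 to it, FNIP1, the partner of FLCN, and BNIP3, a mitophagy receptor. FNIP1 was at 65.1, 64.6 and 62.8 CPM in vehicle, at 56.7, 54.5 and 47.2 CPM with Poria and at 58.0, 58.7 and 69.6 CPM with Atractylodis (slope difference -0.14 ± 0.027, adjusted p = 0.021). RRAGC was at 57.2 to 58.2 CPM in vehicle, at 59.1, 59.8 and 53.5 CPM with Poria and at 59.4, 62.4 and 75.5 CPM with Atractylodis (-0.12 ± 0.024, adjusted p = 0.0225). Both had their widest gap at 500 µg/mL, as FLCN did.

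ATP6V0C, the proteolipid that forms the proton-conducting ring, was at 184, 166 and 164 CPM with Poria and at 187, 171 and 169 CPM with Atractylodis, against 229, 218 and 223 CPM in vehicle. All treated libraries lay below vehicle, and the change of treated over vehicle was -0.36 ± 0.043 (adjusted p = 1.86e-05). RB1CC1 (FIP200, a scaffold of the ULK1 complex) was at 64.5, 64.1 and 70.9 CPM with Poria and at 60.5, 65.6 and 71.3 CPM with Atractylodis, against 54.4 to 57.4 CPM in vehicle. It rose with both, with a slope of 0.11 ± 0.018 in each. Of the 30 machinery genes of the wider list, 9 were higher and 2 lower in treated libraries (36.7% called, 25.3% over all genes). NPC2, a cholesterol carrier of the lumen, fell with Poria to 103 CPM at 500 µg/mL, against 129 to 136 CPM in vehicle (-0.12 ± 0.018, adjusted p = 0.000379). SCPEP1, a carboxypeptidase, rose with Atractylodis (0.13 ± 0.023, adjusted p = 0.00119).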

How the data were processed

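The authors deposited expected counts for each gene, as RSEM estimates them, with 1 column a library. Per the submitters' processing notes, FastQC 0.11.9, Trim Galore 0.6.5, STAR 2.7.3a and RSEM 1.3.3 were used with build GRCh38; the annotation release and the strand setting are not given in the sources used here. Per the labels' protocols the libraries came from a directional mRNA kit. The table has 279 columns, and 270 that belong to no sample here were not used.

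Expected counts were rounded to whole numbers and tested with edgeR 4.0.16 in R 4.3.3: TMM scaling, filterByExpr (count minimum 10, total 15), robust quasi-likelihood fits and Benjamini-Hochberg adjustment over 18356 genes at 0.05. Treated against vehicle had 7 residual degrees of freedom. Dose slopes used steps 0 to 3 and had 6, so that treated doses without replicates borrow their spread from deviations from a straight line. CPM are TMM-scaled. The biological coefficient of variation was 5.49% and 4.97%. The treated-against-vehicle and dose-slope fits were tested on simulated counts with known changes. GC content and length come from GENCODE 29 transcripts (99.2% of tested genes) and promoters from RefSeq.

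Genes described library by library were those called, up to the 12 with the smallest p in each comparison, plus TFEB, SQSTM1, LAMP1, CTSD, MAP1LC3B and GABARAPL1; other members are given for completeness. Of the wider list the rule took up to 2 per class and comparison with the smallest p, of which some are named. LAMTOR3 was named after its values were seen. The 49 genes and the lists were chosen with earlier results of these data known. Of 111 wider symbols 110 matched. Alternatives were RLE scaling, DESeq2 1.42.0, no filter, GC and length offsets (splines with 5 degrees of freedom), slopes within treated libraries, dose itself, and each library left out; the GC offsets combined with slopes within treated libraries were chosen after seeing the data. Vehicle libraries differed from each other beyond sampling noise.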

Additional observations from a re-analysis of the deposited data

Results flagged for a closer look

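The following slopes differed between the extracts in a direct test (Poria slope minus Atractylodis slope, log2 per dose step, edgeR). SQSTM1 had -0.225, with 0 of 3 Poria libraries at or above the lowest Atractylodis library. FLCN had -0.164, and it kept the call within the treated libraries (adjusted p = 0.00751). GPNMB had -0.139 and CTSD -0.122. NEU1 had -0.0835, PSAP -0.0812 and ASAH1 -0.0995. Each of the 7 lost its call without the library of either extract at 500 µg/mL (adjusted p of SQSTM1 0.374 without Poria and 0.311 without Atractylodis). In both fits 0 of all genes were called, so the loss is not particular to these 7. Every call of the difference thus rests on 1 library an arm. With each library left out in turn, the SQSTM1 difference stayed between -0.26 and -0.15.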

How the results depend on the processing

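The Poria, Atractylodis and difference counts (17, 17 and 7 genes) fell when slopes were fitted within treated libraries or on dose itself. The difference count fell to 0 without either 500 µg/mL library. The cause was not tested. Within treated libraries, Poria gave 3 calls (0 rising, 3 falling), Atractylodis 5 (5 rising, 0 falling) and the difference 3, all 3 lower. Of all genes, 2.45%, 4.04% and 1.16% were called there. With GC and length offsets added, an alternative chosen after seeing the data, Poria gave 6 (2 rising, 4 falling) and Atractylodis 4 (4 rising, 0 falling). The shares over all genes were then 3.35% and 2.65%. With dose itself, edgeR called 0 genes with Poria, 0 rising and 0 falling (18 at an unadjusted p under 0.05). It called 2 with Atractylodis (2 rising, 0 falling) and 3 for the difference, all 3 lower. Over all genes, 0.681% were called with Poria, 0.365% with Atractylodis and 0.294% for the difference. GC and length offsets left 5 genes lower in treated libraries and 0 falling with Atractylodis; the lysosomal median was -0.0029 for treated against vehicle and -0.026 for Poria, and the autophagy median for Poria 0.0039. RLE scaling changed no count, DESeq2 called 10 genes for the difference and 15, 17 and 17 for the others, and without the filter 19, 19, 16 and 10 were called.

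Leaving out 1 library gave 9 to 19 calls for treated against vehicle (3 to 9 higher, 6 to 11 lower), 12 to 21 for Poria (2 to 5 rising, 10 to 16 falling), 5 to 20 for Atractylodis (3 to 15 rising, 0 to 5 falling) and 0 to 8 for the difference, all lower. Of all genes, 16.3% to 29.1%, 13.8% to 23.1%, 5.61% to 23.4% and 0% to 1.63% were called in these fits.

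Sign changes were mostly in values that had not passed the threshold. For treated against vehicle, GABARAPL1 had 0.0013 with GC offsets, 0.015 without Poria at 20 µg/mL and 0.0042 without Atractylodis at 100 µg/mL, and SQSTM1 -0.0018 without Atractylodis at 500 µg/mL. For Poria, TFEB had 0.014 with GC offsets and 0.037 without the 500 µg/mL library, and GABARAPL1 0.062 within treated libraries, 0.065 with GC offsets added, 0.00282 with dose itself and 0.0011 without vehicle library 1. For Atractylodis, CTSD had 0.022 with GC offsets, 0.017 within treated libraries, 0.069 with both, 0.012 with dose itself and 0.00049 without the 100 µg/mL library; TFEB had -0.13 within treated libraries and -0.088 with GC offsets added; LAMP1 had 0.000928 with dose itself and GABARAPL1 -0.0083 without the 500 µg/mL library. The called Atractylodis slopes that turned, within treated libraries with GC offsets, were GABARAPL2 (-0.014), CD68 (0.034), ATP6V0D1 (0.026) and SMPD1 (0.017). For the difference within treated libraries, TFEB had 0.035 and GABARAPL1 0.0077 (0.016 with GC offsets).

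With each library left out in turn, the values that changed sign ranged for treated against vehicle over -0.040 to 0.015 for GABARAPL1 and -0.0018 to 0.17 for SQSTM1, for Poria over -0.051 to 0.037 for TFEB and -0.028 to 0.0011 for GABARAPL1, and for Atractylodis over -0.077 to 0.00049 for CTSD and -0.0083 to 0.058 for GABARAPL1.

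No paired analysis was possible because all 6 treated libraries carry replicate number 2 and only vehicle has others. With 1 library a dose, the spread between cultures at a dose was not measured.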
